A study of Homo sapiens with 6 samples.

Results

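Zinc finger (ZNF) genes of chromosome 19 were followed in LX-2 cells treated with recombinant human Sema3C (rhSema3C). They were chosen by 3 features of the deposited table: a position on chromosome 19, a symbol of ZNF followed by digits and at most 1 letter, and a mean of at least 0.5 FPKM over the 6 samples. An FPKM value is a fragment count divided by transcript length in kilobases and by library size. Of 249 such symbols on the chromosome, 173 reached this level, out of 33900 genes in the table and 14178 genes at or above 0.5 FPKM. The 173 genes are all annotated as protein-coding. For 19 of them the PBS mean alone was under 0.5 FPKM, so that they reached the limit only through the rhSema3C samples, while no gene did so the other way round.

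LX-2 cells are an immortal human cell line derived from hepatic stellate cells, which lay down collagen in the injured liver. The cells were labelled wild type. RNA of 3 samples exposed to rhSema3C at 300 ng/ml for 48 h was compared with RNA of 3 samples exposed to PBS for the same time, in order to describe the transcriptional response of stellate cells to this secreted semaphorin. All 6 samples came from 1 cell line, and the labels call the replicates biological without saying how the cultures were separated, so the p-values measure the spread between these samples.

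Most zinc finger proteins of this kind bind DNA through a row of C2H2 fingers, each folded around a zinc ion held by cysteines and histidines. Many carry a KRAB domain, which recruits the corepressor TRIM28 and, through it, the histone methyltransferase SETDB1, and many of the known targets are retrotransposons. In the human genome the family lies mainly in clusters of tandem copies on chromosome 19. Its members are usually expressed at low levels.

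The fingers of the genes with the largest changes show how alike and how different these genes are at the DNA level. The first finger with the canonical spacing and linker is shown for the 3 genes with the largest rises (ZNF177, ZNF83 and ZNF121) and the 3 with the largest falls among those that hold such a finger (ZNF787, ZNF792 and ZNF784). Each sequence is 78 bases of the coding strand, 5′ to 3′, from the GENCODE v29 annotation of GRCh38, and the capitals mark the codons of the 2 cysteines and 2 histidines that hold the zinc.
ZNF177: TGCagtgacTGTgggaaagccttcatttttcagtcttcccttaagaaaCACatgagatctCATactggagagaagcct
ZNF83: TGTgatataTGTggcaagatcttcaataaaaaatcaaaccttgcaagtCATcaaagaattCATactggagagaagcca
ZNF121: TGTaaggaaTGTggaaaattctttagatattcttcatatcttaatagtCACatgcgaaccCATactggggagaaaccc
ZNF787: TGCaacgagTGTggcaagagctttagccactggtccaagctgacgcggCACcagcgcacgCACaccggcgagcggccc
ZNF792: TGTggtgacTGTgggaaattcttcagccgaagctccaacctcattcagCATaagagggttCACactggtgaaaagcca
ZNF784: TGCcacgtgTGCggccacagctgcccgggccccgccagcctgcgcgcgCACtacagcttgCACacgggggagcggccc

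Each of these fingers lies in the coding part of the last exon of its transcript. The ZNF177 finger is at chr19:9381187-9381264 on the plus strand, and the other 5 are on the minus strand, at chr19:52614121-52614198 (ZNF83), chr19:9566600-9566677 (ZNF121), chr19:56088893-56088970 (ZNF787), chr19:34958760-34958837 (ZNF792) and chr19:55622339-55622416 (ZNF784). The zinc-holding codons stand at the same places in all 6 because fingers of this spacing were searched for, and the bases between them differ. ZNF177 and ZNF121 were identical at 52 of 78 bases, and ZNF121 and ZNF784 at 32 of 78. The GC content of the finger was 43.6% in ZNF177, 34.6% in ZNF83 and 37.2% in ZNF121, against 66.7% in ZNF787, 48.7% in ZNF792 and 76.9% in ZNF784. At the third base of the codons, G or C stood in 46.2% of the codons in ZNF177, 26.9% in ZNF83 and 30.8% in ZNF121, and in 92.3% in ZNF787, 53.8% in ZNF792 and 100% in ZNF784. In both measures ZNF177 and ZNF792 were thus close to each other, with ZNF83 and ZNF121 below them and ZNF787 and ZNF784 far above.

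Total counts on genes ranged from 68267808 to 89245585 per sample. Counts were scaled by the TMM method and given as CPM, which puts the samples on 1 common library size. The test of each gene was edgeR's quasi-likelihood test, with Benjamini-Hochberg adjustment over all 14178 genes, and each ± below is the SE of a log2 fold change with 3 samples per group. Mitochondrial genes took 4.75% to 5.42% of the counts with PBS and 3.73% to 3.93% with rhSema3C, and the part of this difference in the results was not tested. Of 11 stellate cell and myofibroblast markers, 8 were at or above 0.5 FPKM, but COL1A2 (0.109 FPKM), DES (0.0252 FPKM) and DCN (0.00791 FPKM) were close to 0. Of these 8 markers 0 rose and 6 fell (75%), where 30.6% of all genes tested fell, and the list summed to 1497 to 1550 FPKM with PBS and 1193 to 1259 FPKM with rhSema3C. In a bulk sample, fewer cells that express a gene and less RNA of it per cell cannot be told apart. Hepatocyte markers summed to 2.63 to 3.15 FPKM with PBS and 3.52 to 4.14 FPKM with rhSema3C, nearly all of it SERPINA1, and ALB had a mean of 0.00516 FPKM. Endothelial markers summed to 0.797 to 1.05 FPKM with PBS and 1.26 to 1.67 FPKM with rhSema3C. Among them, VWF had means of 0.101 and 0.659 FPKM in the same order, and KDR 0.723 and 0.720 FPKM. Epithelial markers summed to 2.37 to 3.92 FPKM with PBS and 3.20 to 3.68 FPKM with rhSema3C, with EPCAM at a mean of 0.0117 FPKM. The leukocyte list summed to 90.5 to 98.2 FPKM with PBS and 63.9 to 70.1 FPKM with rhSema3C, nearly all of it CD68, while the defining leukocyte marker PTPRC had a mean of 0.00444 FPKM. The part of these markers in the results was not tested.

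The chromosome 19 ZNF genes were mostly higher with rhSema3C. Of the 173 genes, 86 rose at an adjusted p below 0.05 (49.7%), 16 fell (9.25%) and 71 passed the test in neither direction. Among all 14178 genes tested, 62.3% passed the same threshold, 31.7% as rises and 30.6% as falls. The median log2 fold change of the ZNF genes was 0.36, with quartiles of 0.07 and 0.59, and 136 of them (78.6%) had a value above 0. The median over all genes tested was 0.02. The 19 genes that reached the limit only through the rhSema3C samples had to be higher there, and 16 of them were among the rises. Of the other 154 genes, 70 rose (45.5%) and 16 fell (10.4%), around a median of 0.31. Every rhSema3C sample lay above every PBS sample for 99 of the ZNF genes and below for 18, where the background over all genes was 34.6% above and 33.3% below.

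The rise was spread over the samples. The 173 genes together took 0.142%, 0.135% and 0.140% of all counts in the PBS samples, and 0.168%, 0.178% and 0.178% in the rhSema3C samples. Their summed level was 301.1, 288.9 and 294.6 FPKM with PBS, and 333.6, 350.8 and 350.3 FPKM with rhSema3C. Each rhSema3C sample was above each PBS sample in both measures. On the log2 scale against the PBS mean, the median gene stood at 0.05, -0.04 and -0.01 in the PBS samples and at 0.31, 0.42 and 0.34 in the rhSema3C samples. All of these values include the 19 genes that reached the limit only through the rhSema3C samples and had to be higher there. They were not computed without those genes.

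Changes beyond 2-fold were few and all in 1 direction. A change of more than 2-fold with an unadjusted p below 0.05 was found upwards in 10 of the 173 ZNF genes and downwards in 0, against 3.42% and 2.12% of all genes tested. These backgrounds are not matched for level. At 0.5 to 1 FPKM, 4 of 74 ZNF genes and 160 of 1878 other genes rose this far. At 1 to 2 FPKM the counts were 4 of 58 and 110 of 1953, and at 2 to 5 FPKM 2 of 30 and 90 of 3214. This count of 10 depended on the method, with 4 after removal of the GC content and length trends, 0 with limma on log2(FPKM + 1) and 16 when samples were scaled by library size only. By edgeR's adjusted p, the 16 falling genes had log2 fold changes between -0.91 and -0.15. With that last scaling, the median of all genes tested moved to 0.13 and that of the ZNF genes to 0.47.

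The size of this shift depended on whether base composition was taken into account. With each sample's trend on transcript GC content and length removed, 40 of the 173 genes rose and 20 fell, or 23.1% and 11.6%. Over all genes tested, 24.7% rose and 31.1% fell in that fit, so the share of rising ZNF genes was no longer above the background. The median log2 fold change of the ZNF genes was 0.13, against -0.03 over all genes tested. The ZNF genes of other chromosomes had a median of 0.15 in that fit, with 36.7% rising and 14.5% falling.

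Separate groups were a condition for naming the genes with the largest changes, so their separation is no finding. ZNF83 (ENSG00000167766, chr19:52594060-52690496, minus strand, 14 fingers) had the lowest p among the rising genes. Its level was 12.5, 11.2 and 11.1 CPM in the PBS samples and 24.3, 32.8 and 30.9 CPM in the rhSema3C samples. The groups stood far apart, and the lowest rhSema3C sample was replicate 1. ZNF83 is overlapped by 2 clone-named genes on the same strand and by ZNF137P on the other, so that its counts are uncertain to that extent. The log2 fold change was 1.34 ± 0.11 (SE, n = 3 per group, edgeR's adjusted p = 1.8e-06).

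ZNF121 (ENSG00000197961, chr19:9560353-9584533, minus strand, 9 fingers) and ZNF558 (ENSG00000167785, chr19:8806170-8832314, minus strand, 9 fingers) lie in the same cluster. ZNF121 had 4.98, 4.57 and 5.26 CPM with PBS and 11.1, 12.7 and 13.3 CPM with rhSema3C. ZNF558 had 7.66, 6.80 and 5.93 CPM with PBS and 15.3, 17.3 and 15.5 CPM with rhSema3C. In both genes each rhSema3C sample was far above each PBS sample. The log2 fold change was 1.33 ± 0.12 for ZNF121 (edgeR's adjusted p = 2.7e-06) and 1.24 ± 0.12 for ZNF558 (edgeR's adjusted p = 4e-06).

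ZNF627 (ENSG00000198551, chr19:11559374-11619124, plus strand, 10 fingers) had 5.63, 6.10 and 5.36 CPM with PBS and 13.1, 13.9 and 12.2 CPM with rhSema3C. ZNF441 (ENSG00000197044, chr19:11767000-11784078, plus strand, 14 fingers) had 2.13, 2.24 and 2.36 CPM with PBS and 4.77, 5.39 and 5.53 CPM with rhSema3C. ZNF433 (ENSG00000197647, chr19:12014732-12035741, minus strand, 18 fingers) had 2.80, 1.84 and 3.12 CPM with PBS and 5.78, 6.06 and 6.33 CPM with rhSema3C. These 3 genes lie within the cluster at 11.5 to 12.6 Mb, and ZNF441, with a PBS mean of 0.442 FPKM, reached the limit only through the rhSema3C samples. Their log2 fold changes were 1.20 ± 0.11, 1.22 ± 0.15 and 1.23 ± 0.19, with adjusted p of 3.1e-06, 4.1e-05 and 0.00021 by edgeR. ZNF433 is overlapped on its own strand by 2 further genes of the table. It also shares its locus with the antisense gene ZNF433-AS1, and reads of the 2 cannot be told apart if the counting ignored strand, which is not given in the sources used here. ZNF433-AS1 itself had a log2 fold change of -0.14 (edgeR's adjusted p = 0.47).

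ZNF57 (ENSG00000171970, chr19:2900898-2918473, plus strand, 13 fingers) sits near the short-arm end of the family. It had 1.62, 1.61 and 1.29 CPM with PBS and 3.52, 3.70 and 3.46 CPM with rhSema3C, a log2 fold change of 1.24 ± 0.19 (edgeR's adjusted p = 0.00014). ZNF177 (ENSG00000188629, chr19:9363020-9382617, plus strand, 7 fingers) had the largest fitted rise and the most uneven PBS samples, with 1.43, 0.743 and 0.318 CPM against 1.78, 2.47 and 2.25 CPM. Its log2 fold change of 1.36 ± 0.41 (edgeR's adjusted p = 0.013) moved between 0.99 and 2.02 when single samples were left out. With a PBS mean of 0.280 FPKM, ZNF177 reached the limit only through the rhSema3C samples, and without a filter on low genes it did not pass the test (edgeR's adjusted p = 0.059). A readthrough gene, ZNF559-ZNF177, covers the same bases on the same strand, so that the split of reads between them is uncertain.

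**Figure D1:**
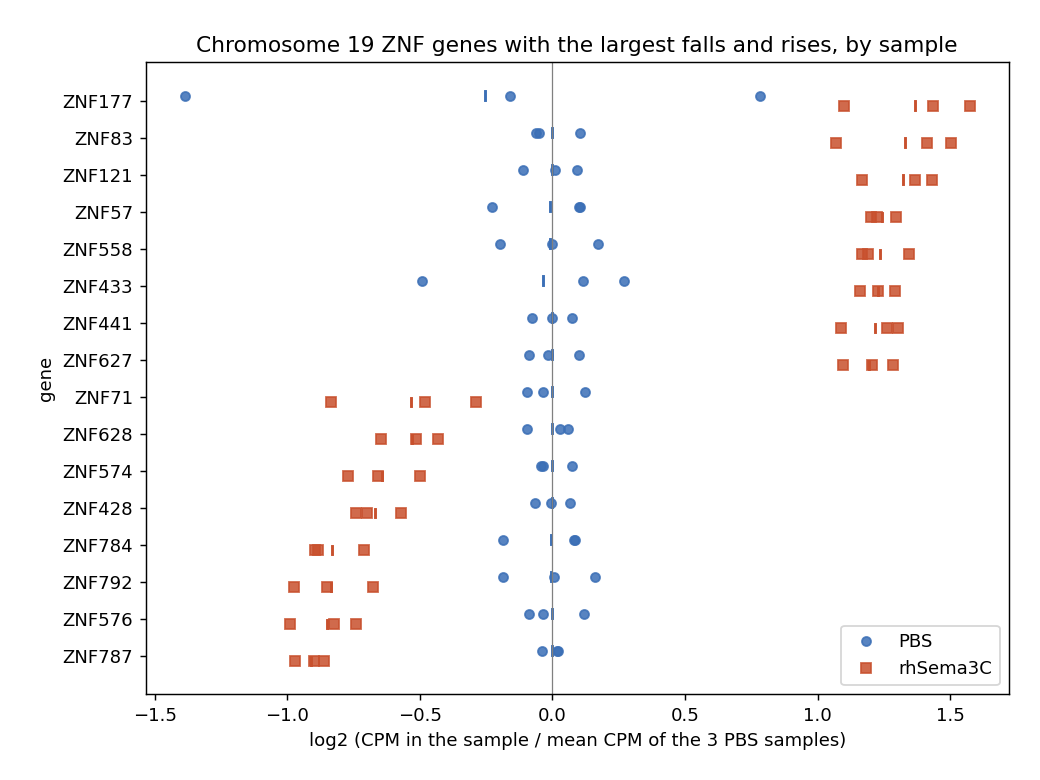
Level of the 8 ZNF genes with the largest rises and the 8 with the largest falls in each sample, as log2 of the CPM over the mean CPM of the 3 PBS samples (horizontal axis); points are samples and short vertical lines are group means. The genes were chosen to have separate groups, and the PBS samples of ZNF177 and ZNF433 are the most scattered.

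The falling genes were fewer and differed in base composition. ZNF787 (ENSG00000142409, chr19:56087366-56121295, minus strand, 7 fingers) had the lowest p of all 173 genes. Its level was 43.0, 44.9 and 44.8 CPM with PBS and 23.8, 22.6 and 24.3 CPM with rhSema3C. The samples of each group were close together and the groups were well apart, with a log2 fold change of -0.91 ± 0.06 (edgeR's adjusted p = 3.9e-07).

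ZNF428 (ENSG00000131116, chr19:43607224-43619629, minus strand) was the ZNF gene with the highest level of the set, at a mean of 18.6 FPKM, and its coding sequence holds 1 finger. It had 35.0, 38.3 and 36.5 CPM with PBS and 21.9, 24.7 and 22.6 CPM with rhSema3C, a log2 fold change of -0.67 ± 0.07 (edgeR's adjusted p = 1.1e-05). ZNF576 (ENSG00000124444, chr19:43596392-43601157, plus strand, 4 fingers) lies beside it and had 23.6, 20.4 and 21.2 CPM with PBS and 10.9, 13.0 and 12.3 CPM with rhSema3C. Its log2 fold change was -0.85 ± 0.10 (edgeR's adjusted p = 1.9e-05). The gene SRRM5 overlaps both, on the strand of ZNF576, so that the counts of this pair are uncertain to that extent.

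Another 3 falling genes were clear of any overlapping gene in the table. ZNF574 (ENSG00000105732, chr19:42068477-42081552, plus strand, 18 fingers) had 31.5, 34.1 and 31.3 CPM with PBS and 18.9, 20.5 and 22.9 CPM with rhSema3C. ZNF792 (ENSG00000180884, chr19:34956354-34964229, minus strand, 12 fingers) had 11.3, 10.2 and 8.93 CPM with PBS and 5.16, 5.63 and 6.35 CPM with rhSema3C. ZNF784 (ENSG00000179922, chr19:55620741-55624566, minus strand, 6 fingers) had 4.83, 4.84 and 4.01 CPM with PBS and 2.47, 2.79 and 2.45 CPM with rhSema3C. In each of them the rhSema3C samples differed less from each other than from the PBS samples. Their log2 fold changes were -0.64 ± 0.08, -0.83 ± 0.13 and -0.83 ± 0.16, with adjusted p of 4.5e-05, 0.00022 and 0.001 by edgeR.

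ZNF628 (ENSG00000197483, chr19:55476617-55484487, plus strand, 16 fingers) and ZNF71 (ENSG00000197951, chr19:56595300-56626481, plus strand, 13 fingers) fell less. ZNF628 had 7.96, 8.70 and 8.88 CPM with PBS and 5.97, 6.32 and 5.43 CPM with rhSema3C. ZNF71 had 20.7, 18.5 and 17.8 CPM with PBS and 15.6, 10.7 and 13.6 CPM with rhSema3C. The rhSema3C samples of ZNF71 were spread more widely than its PBS samples, though none reached the lowest PBS sample. Their log2 fold changes were -0.53 ± 0.12 and -0.52 ± 0.13, with adjusted p of 0.0025 and 0.0048 by edgeR.

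The genes were then grouped by position, with a new cluster beginning wherever the starts of neighbouring ZNF genes of the table were more than 1 Mb apart. This gave 16 clusters, of which 8 held at least 3 of the 173 genes. The 19 genes that reached the limit only through the rhSema3C samples were kept in these clusters. They were also kept in the groups by GC content, fingers and length below. Counts of rises and medians are raised by them to an extent that was not tested. All 8 medians were above 0 and ranged from 0.65 to 0.02. Over all genes tested the median was 0.02, with 31.7% rising and 30.6% falling. The cluster medians at 34.5 and 55.5 Mb were not above 0 in every alternative given below. The cluster at 11.5 to 12.6 Mb stood highest, with 12 of its 16 genes rising and 0 falling. The large cluster at 51.6 to 53.6 Mb had a median log2 fold change of 0.53, with 21 of 31 genes rising and 0 falling, and it holds ZNF83.

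The cluster at 36.2 to 37.8 Mb had a median of 0.51, with 9 of 14 genes rising and 0 falling. Its lowest p belonged to ZNF146 (ENSG00000167635, chr19:36214602-36238774, plus strand), a protein made almost wholly of zinc fingers. ZNF146 had 34.7, 32.2 and 35.7 CPM with PBS and 49.3, 55.9 and 49.5 CPM with rhSema3C, groups that did not overlap, for a log2 fold change of 0.59 ± 0.07 (edgeR's adjusted p = 2.2e-05).

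The cluster at 19.7 to 24.1 Mb, near the centromere, had a median of 0.44, and all 17 of its genes had values above 0, from 0.15 to 0.81. The test was passed by 8 of them. The lowest p belonged to ZNF486 (ENSG00000256229, chr19:20167214-20200488, plus strand, 9 fingers), with 4.92, 4.97 and 5.70 CPM with PBS and 7.50, 9.15 and 7.25 CPM with rhSema3C. The groups of ZNF486 stood apart, with a log2 fold change of 0.62 ± 0.14 (edgeR's adjusted p = 0.0022). With the GC content and length trends removed, its value was 0.29 and no longer passed the test.

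This centromeric cluster also holds ZNF91 and ZNF93, KRAB zinc finger proteins known to silence SVA and LINE-1 retrotransposons. ZNF91, with 31 fingers the most of the set, had 6.13, 4.83 and 5.08 CPM with PBS and 7.91, 9.05 and 7.01 CPM with rhSema3C. With a PBS mean of 0.487 FPKM, ZNF91 reached the limit only through the rhSema3C samples. Its log2 fold change was 0.58 ± 0.14 (edgeR's adjusted p = 0.0045). ZNF93 had 4.30, 5.01 and 4.37 CPM with PBS and 5.88, 5.48 and 5.29 CPM with rhSema3C. Its groups did not overlap either, but its log2 fold change of 0.28 ± 0.14 did not pass the test (edgeR's adjusted p = 0.091). On chromosome 12, the KRAB gene ZNF268 rose by 0.42 ± 0.13 (edgeR's adjusted p = 0.015), and ZNF10, the gene in which the KRAB domain was much studied, was under the limit at 0.399 FPKM.

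The other clusters were more mixed. At 7.1 to 9.8 Mb, 9 of 13 genes rose and 1 fell, around a median of 0.38. At 43.5 to 45.1 Mb, 9 of 19 genes rose around a median of 0.51 and 2 fell, ZNF428 and ZNF576. At 34.5 to 35.0 Mb, 5 genes had a median of 0.23, with 1 rising and 1, ZNF792, falling by 0.83 on the log2 scale.

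The cluster nearest the long-arm end, at 55.5 to 58.5 Mb, was the largest and the least shifted. Of its 49 genes, 13 rose (26.5%) and 11 fell (22.4%), both below the 31.7% and 30.6% of all genes tested. The median log2 fold change was 0.02, as it was over all genes tested. The 124 ZNF genes elsewhere on the chromosome had a median of 0.44, with 73 rising and 5 falling. Thus 11 of the 16 falling genes lay in this cluster. Its genes had a median transcript GC content of 47.4% and a median level of 1.70 FPKM, against 41.0% and 0.975 FPKM for the 124 others.

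A gap of 0.5 Mb divided this cluster further. Between 55.5 and 56.6 Mb, 11 genes had a median log2 fold change of -0.30, with 1 rising and 5 falling. Between 57.2 and 58.5 Mb, 38 genes had a median of 0.11, with 12 rising and 6 falling. The 11 genes had a median transcript GC content of 64.8% and the 38 genes one of 46.2%.

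Removing the GC content and length trends narrowed the range between clusters. The medians were then 0.39 at 11.5 Mb, 0.26 at 36.2 Mb, 0.21 at 51.6 Mb, 0.19 at 43.5 Mb, 0.13 at 7.1 Mb, 0.09 at 19.7 Mb, 0.02 at 55.5 Mb and -0.11 at 34.5 Mb. The counts of rising genes were 6 at 11.5 Mb, 4 at 36.2 Mb, 7 at 51.6 Mb with 1 fall, 3 at 43.5 Mb with 3 falls, 6 at 7.1 Mb, 1 at 19.7 Mb, 10 at 55.5 Mb with 13 falls and 0 at 34.5 Mb with 1 fall. Of the 8 clusters, those at 7.1, 11.5 and 36.2 Mb then had a larger share of rising genes than the 24.7% of all genes tested. The cluster at 11.5 Mb again had the highest median, and that of the cluster at 34.5 Mb changed sign and became the lowest. With the GC content trend alone removed, the median at 55.5 Mb was -0.006.

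Genes without a ZNF name that lie between the ZNF genes were not higher as a group. In the span from 7.1 to 9.8 Mb, 26 such genes had a median log2 fold change of -0.30, with 2 rising and 17 falling. In the span from 55.5 to 58.5 Mb, 28 had a median of -0.22, with 2 rising and 11 falling. In the span from 43.5 to 45.1 Mb, 19 had a median of -0.35, with 2 rising and 10 falling. The other spans held fewer such genes, with medians of -0.21 at 11.5 Mb, -0.30 at 19.7 Mb and -0.21 at 51.6 Mb. At 34.5 and 36.2 Mb, 2 and 3 such genes had medians of 0.01 and -0.09, with 0 rising and 0 falling. Median GC content was 60.5% at 7.1 Mb, 53.1% at 55.5 Mb and 59.4% at 43.5 Mb, against 42.4% for the 173 ZNF genes.

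**Figure D2:**
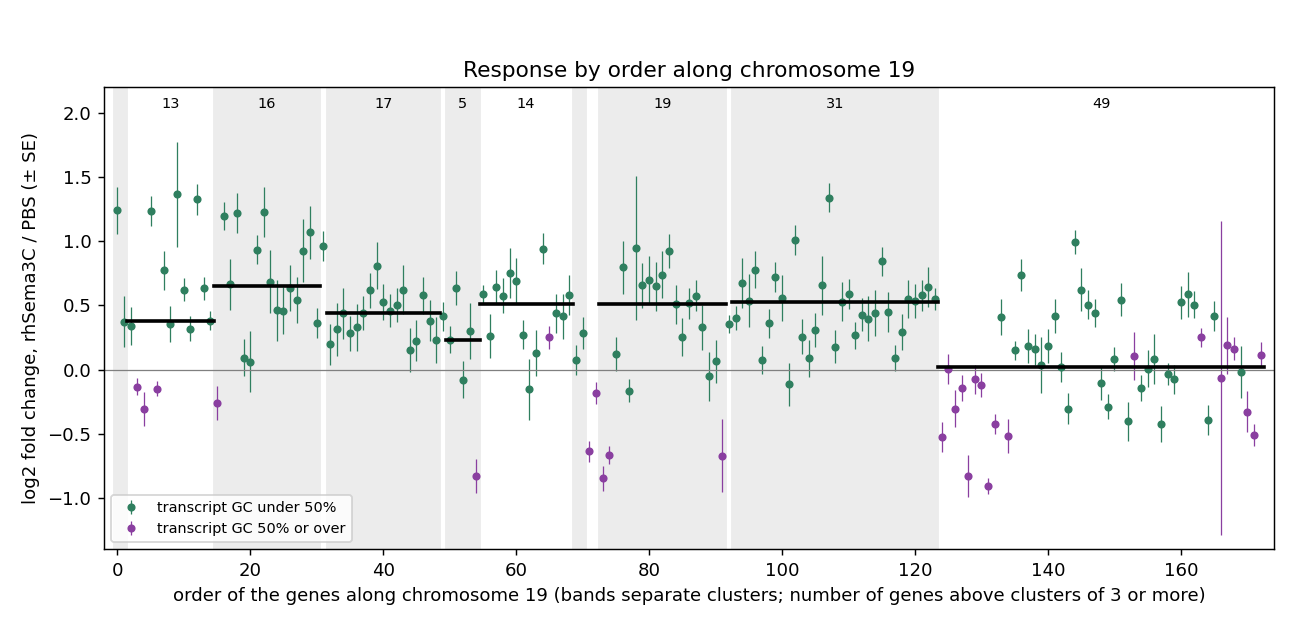
Log2 fold change of rhSema3C over PBS (vertical axis, with SE) of the 173 ZNF genes in their order along chromosome 19; bands separate clusters, black lines are the medians of clusters of 3 or more genes, and colours give transcript GC content under 50% or at 50% and over. Most genes of the clusters between 11.5 and 53.6 Mb lie above 0, and the last cluster is spread about 0, with a median of 0.02.

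Over the whole chromosome, the other genes were mostly lower. The 801 genes tested on chromosome 19 without such a symbol had a median log2 fold change of -0.31, with 64 rising and 447 falling. The 207 ZNF genes of other chromosomes had a median of 0.26, with 96 rising and 34 falling. The medians of both sets of ZNF genes were thus above 0, and that of the other genes of chromosome 19 was below 0. With the GC content and length trends removed, the other chromosome 19 genes had a median of -0.09, and on TPM values one of -0.07, where the medians over all genes tested were -0.03 and 0.23.

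Expression level divided the ZNF genes further. The 74 genes at 0.5 to 1 FPKM had a median log2 fold change of 0.45, with 41 rises and 0 falls. They include all 19 genes that reached the limit only through the rhSema3C samples, and the other 55 had 25 rises (45.5%) and 0 falls around a median of 0.40. The 58 genes at 1 to 2 FPKM had a median log2 fold change of 0.37, with 30 rises and 8 falls. The 30 genes at 2 to 5 FPKM had a median of 0.20, with 14 rises and 4 falls.

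The 11 genes at or above 5 FPKM had 1 rise, that of ZNF146, and 4 falls. Of these, the 8 genes at 5 to 10 FPKM had a median of -0.15 and the 3 genes at 10 FPKM and over one of -0.13. ZNF358, at a mean of 12.5 FPKM, had 28.1, 27.8 and 27.5 CPM with PBS and 25.2, 24.7 and 26.3 CPM with rhSema3C. Its groups did not overlap, yet its log2 fold change of -0.13 ± 0.06 did not pass the test (edgeR's adjusted p = 0.095). ZNF317 passed narrowly, at -0.15 ± 0.06 (edgeR's adjusted p = 0.047), and ZNF581 did not, at -0.12 ± 0.09 (edgeR's adjusted p = 0.28). On TPM values these 3 genes had values of 0.09, 0.07 and 0.10, where the median over all genes tested moved from 0.02 to 0.23, so that they remained below that median.

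At the low end, other genes of the same level had a smaller median shift and a smaller share of rises, but a wider spread. Their quartiles at 0.5 to 1 FPKM were -0.26 and 0.565, against 0.237 and 0.634 for the ZNF genes. All other genes at 0.5 to 1 FPKM had a median log2 fold change of 0.19, with 460 of 1878 rising (24.5%) and 213 falling (11.3%). Among the ZNF genes of this level, 55.4% rose and 0% fell, or 45.5% and 0% of those with a PBS mean at the limit. The test was more precise for the ZNF genes of this level, with a median SE of 0.167 against 0.24 for other genes. Their median transcript length was 4152 bases against 2133. The part of this precision in the shares was not tested. At 1 to 2 FPKM, 33.0% of 1953 other genes rose and 13.4% fell, against 51.7% and 13.8% of the ZNF genes. At 2 to 5 FPKM, 39.4% of 3214 other genes rose and 21.1% fell, against 46.7% and 13.3% of the ZNF genes. At 5 to 10 FPKM the order was the reverse. There 34.8% of 2528 other genes rose and 32.9% fell, against 0% and 37.5% of the 8 ZNF genes. At 10 FPKM and over, 4432 other genes had a median of -0.17. Under 5 FPKM, the ZNF genes of other chromosomes had shares like those of chromosome 19. Of them, 52.2% rose at 0.5 to 1 FPKM, 56.0% at 1 to 2 FPKM and 48.4% at 2 to 5 FPKM.

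**Figure D3:**
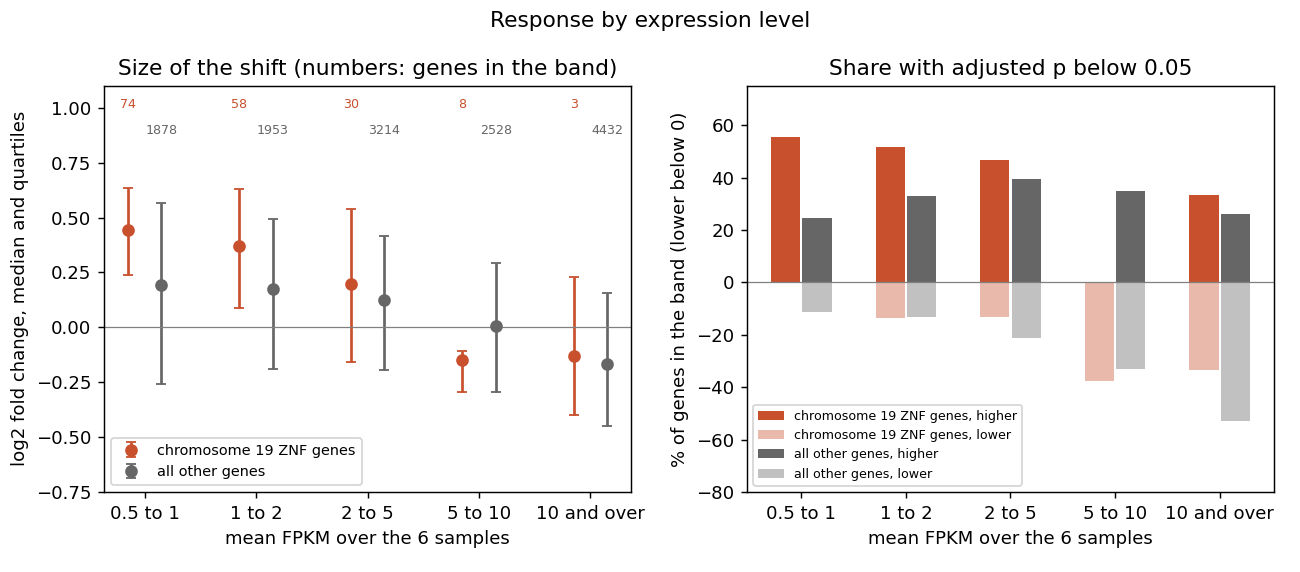
Response in bands of mean FPKM over the 6 samples for the 173 chromosome 19 ZNF genes and for all other genes tested; the left panel gives the median and quartiles of the log2 fold change, with the number of genes above, and the right panel the percentage with an adjusted p below 0.05, falls drawn below 0. In both sets the medians are lower above 5 FPKM than below 2 FPKM, and in the 3 lowest bands the share of rising genes is larger among the ZNF genes, the lowest of which includes 19 genes that reached the limit only through the rhSema3C samples.

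Transcript GC content was taken from the longest GENCODE v29 transcript of each gene and differed between rising and falling genes. Of the 86 rising genes, 84 had transcripts under 50% GC, and of the 16 falling genes 11 had transcripts of 50% GC or more. The 86 include 16 of the 19 genes that reached the limit only through the rhSema3C samples. The 144 genes under 50% GC had a median log2 fold change of 0.44, with 84 rising and 5 falling. The 29 genes at 50% GC and over had a median of -0.26, with 2 rising and 11 falling. Those 2 rising genes, named here after their values were seen, were ZNF875 (0.25, edgeR's adjusted p = 0.027) and ZNF274 (0.25, edgeR's adjusted p = 0.01), the latter known to bind other zinc finger genes together with SETDB1.

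The same gradient was present among all other genes, at other sizes. Under 40% GC, 44 ZNF genes had a median of 0.44 with 25 rising and 0 falling, and 2077 other genes a median of 0.32 with 1261 rising and 96 falling. From 40% to 45% GC, 72 ZNF genes had a median of 0.48 with 47 rising and 2 falling, and 2887 other genes one of 0.26. From 45% to 50% GC, 28 ZNF genes had a median of 0.37 and 2512 other genes one of 0.04. From 50% to 55% GC, 8 ZNF genes had a median of -0.02 and 2312 other genes one of -0.16. At 55% GC and over, 21 ZNF genes had a median of -0.30 with 0 rising and 7 falling (33.3%). In that band, 4135 other genes had a median of -0.29 with 54.6% falling. The medians of the ZNF genes were thus above those of other genes in each band under 55% GC. At 55% GC and over the medians were close, with a smaller share of falls among the ZNF genes. The ZNF genes of other chromosomes had medians of 0.57 under 40% GC, 0.49 from 40% to 45%, 0.27 from 45% to 50% and -0.21 at 55% and over, so that the gradient was not particular to chromosome 19.

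Across the 173 genes, the log2 fold change and GC content had a Pearson r of -0.57 and a Spearman rho of -0.44, against -0.37 and -0.31 for the log2 fold change and log2 FPKM. Genes are not independent replicates, and these share the 6 libraries, so the values are descriptions. Level and GC content were themselves related, with r of 0.53 and rho of 0.47. Within the genes under 50% GC, the median log2 fold change was 0.46 at 0.5 to 1 FPKM, 0.40 at 1 to 2 FPKM and 0.50 at 2 to 5 FPKM.

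GC content and position overlapped but did not coincide. Outside the cluster at 55.5 to 58.5 Mb, 113 genes under 50% GC had a median of 0.51, with 72 rising and 0 falling. Inside it, 31 genes under 50% GC had a median of 0.15, with 12 rising and 5 falling. The 5 falling genes under 50% GC therefore all lay in this cluster. They were ZNF587B, ZNF551, ZNF544, ZNF772 and ZNF530, named after their values were seen, with log2 fold changes from -0.42 to -0.29 and adjusted p from 0.01 to 0.046 by edgeR. In the same cluster ZNF419 rose by 1.00 on the log2 scale (edgeR's adjusted p = 4.1e-06), so that opposite changes stood side by side.

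The number of fingers was found from the translated coding sequence of each gene. The 15 genes with up to 6 fingers had a median log2 fold change of -0.26, with 2 rising (13.3%) and 4 falling (26.7%). Over all genes tested, 31.7% rose and 30.6% fell. The 45 genes with 7 to 10 fingers had a median of 0.35, the 75 genes with 11 to 15 fingers one of 0.44 and the 38 genes with 16 to 31 fingers one of 0.38. The 15 genes had a median transcript GC content of 59.6% and a median level of 3.025 FPKM. The other bands, in the same order, had 42.4%, 42.3% and 41% GC and 1.145, 1.057 and 1.081 FPKM. The part of GC content and level in this difference was not tested. Longer transcripts had larger shares of rising genes. Of 10 genes under 2000 bases 2 rose, around a median of -0.13, and of 24 genes at 6000 bases and over 17 rose (70.8%), around a median of 0.41. In the bands between, 39.5%, 50% and 52.3% rose. Among all other genes the share rising also grew with length, from 20.3% under 2000 bases to 45.4% at 6000 bases and over. The 10 short ZNF genes had a median GC content of 61.5%, and the 24 long ones 41.1%. The log2 fold change and log2 transcript length had a Pearson r of 0.16 and a Spearman rho of 0.11 across the 173 genes.

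KRAB zinc finger proteins act through a shared set of corepressors and heterochromatin proteins, and 31 of 33 listed genes of this machinery were at or above 0.5 FPKM. ATRX (0.0185 FPKM) and ZFP57 (0.00774 FPKM) were close to 0. Of the 31 genes, 9 rose (29%) and 11 fell (35.5%), shares near the 31.7% and 30.6% of all genes tested, with a median log2 fold change of -0.09. The summed level of the list was 477.4 to 487.2 FPKM with PBS and 422.8 to 427.4 FPKM with rhSema3C.

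TRIM28, the scaffold that KRAB domains bind, is itself a gene of chromosome 19 (chr19:58544064-58550715, plus strand), beyond the last ZNF gene of the long arm. It had 366, 391 and 367 CPM with PBS and 230.3, 236 and 245 CPM with rhSema3C. The groups were far apart, with a log2 fold change of -0.66 ± 0.04 (edgeR's adjusted p = 3.4e-07). UHRF1, which couples DNA methylation to replication, had 128, 139 and 133 CPM with PBS and 70.0, 71.4 and 69.3 CPM with rhSema3C, a log2 fold change of -0.93 ± 0.04 (edgeR's adjusted p = 2.9e-08). The maintenance methyltransferase DNMT1 fell by 0.39 and the H3K9 methyltransferase SUV39H1 by 0.70 on the log2 scale. Transcript GC content was 63.7% in TRIM28, 54.6% in UHRF1, 55.4% in DNMT1 and 57.6% in SUV39H1, and 50.9% in SETDB1, which rose. Genes other than the 173 had a median of -0.16 from 50% to 55% GC and of -0.29 at 55% and over. The part of GC content in these changes was not tested.

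SETDB1, the H3K9 methyltransferase that TRIM28 recruits, moved the other way. It had 17.9, 19.5 and 19.2 CPM with PBS and 25.5, 25.9 and 27.0 CPM with rhSema3C, without overlap, for a log2 fold change of 0.47 ± 0.07 (edgeR's adjusted p = 0.00019). ZNF445, a KRAB zinc finger protein of chromosome 3 that guards imprinted loci, had 33.3, 32.6 and 33.1 CPM with PBS and 45.9, 47.3 and 48.1 CPM with rhSema3C, a log2 fold change of 0.51 ± 0.06 (edgeR's adjusted p = 1.3e-05). MORC3 rose by 0.44, and TASOR, a subunit of the HUSH silencing complex, rose by 0.17 on the log2 scale. The HUSH subunits MPHOSPH8 and PPHLN1 had values of -0.15 and 0.10 and did not pass the test. The histone deacetylase HDAC1 fell by 0.45 and the chromatin remodellers CHD3 and CHD4 by 0.50 and 0.36, while HDAC2 had a value of 0.04 that did not pass.

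**Figure D4:**
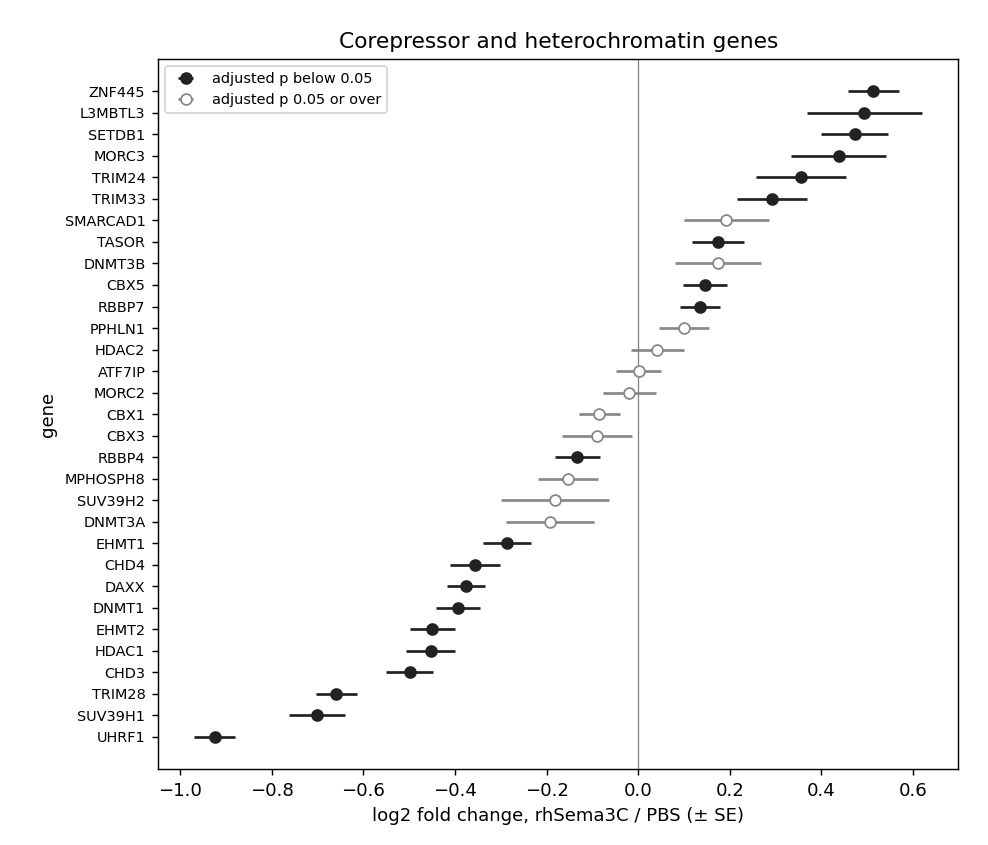
Log2 fold change of rhSema3C over PBS (horizontal axis, with SE) of the 31 corepressor and heterochromatin genes tested, filled where the adjusted p was below 0.05. SETDB1 and ZNF445 lie near 0.5, TRIM28 at -0.66 and UHRF1 at -0.93.

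The limit on level left out 76 ZNF genes of the chromosome. The genes just inside were ZNF85, ZNF765 and ZNF136, at 0.511, 0.519 and 0.521 FPKM, and those just outside were ZNF563, ZNF610 and ZNF350, at 0.498, 0.497 and 0.473 FPKM. The median count of the retained genes was 358 to 657 per sample, and the median SE of the log2 fold change was 0.13. The widest SE was in ZNF497, which had 0 counts in PBS replicate 2 and rhSema3C replicate 2 and 205 to 284 counts in the other 4 samples. ZNF155 had 16 counts in PBS replicate 3 and 196 to 323 elsewhere, and its log2 fold change of 0.95 did not pass the test (edgeR's adjusted p = 0.16). Among the 173 genes, 107 overlap another gene of the table, 65 of them on the same strand, and near-identical fingers of neighbouring genes can also divide reads, so that values of single genes are less certain than their number of counts implies.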

How the data were processed

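The authors deposited, for each of the 6 samples, whole-number counts per gene and FPKM values, which they had scaled to transcript length and library size. The study's methods name Illumina sequencing and the Cufflinks package with cuffmerge. Which aligner, counter, strand setting and genome build were used is not given in the sources used here. Gene positions in the deposited table lie on GRCh38, since 32706 of 32887 gene IDs shared with GENCODE v29 had both ends within 100 kb. All columns of sample values and all samples were used.

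Genes with a mean of at least 0.5 FPKM were tested on the counts with edgeR's quasi-likelihood test and TMM scaling, with Benjamini-Hochberg adjustment over all 14178 genes. Groups came from the sample labels. Replicates of a group differed by more than counting noise (chi-square per degree of freedom of 13.5 to 22.1). With 3 samples in each group, the smallest two-sided p of an exact permutation test on 1 gene is 0.1. PCR reads without molecular identifiers are not independent molecules. The test was tried on simulated counts. GC content and length were taken from the longest GENCODE v29 transcript and their trend was removed in each sample with splines of 4 degrees of freedom. Fingers were counted by the spacing of cysteines and histidines in the translated coding sequence.

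The ZNF genes, the clusters, the level bands and the gene lists were chosen with earlier results of these data known. Genes named by rule were the 8 largest rises and 8 largest falls with separate groups and an adjusted p below 0.05, the 6 highest mean levels, the lowest p in each cluster of at least 3 genes, 3 genes on either side of the FPKM limit, the corepressor list and 4 known KRAB genes. Lists of stellate, hepatocyte, endothelial, leukocyte and epithelial markers were summed. Alternatives covered scaling, filters, pseudocounts, DESeq2, limma, a replicate block, GC and length offsets and each sample left out. Offsets for GC content alone, the limit on the PBS mean and all 249 genes were added after the data were seen. Fits were run with edgeR 4.0.16, DESeq2 1.42.0 and limma 3.58.1 in R 4.3.3, and plots with matplotlib 3.10.9.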

Additional observations from a re-analysis of the deposited data

How the results depend on the processing

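The count of rising ZNF genes was 83 with median-of-ratios factors, 88 with DESeq2, 71 without a filter on low genes and 103 with library size alone, against 86. The median log2 fold change, 0.36, was 0.47 with library size alone, 0.44 with library sizes taken without mitochondrial and the 50 most abundant other genes, 0.31 for genes with a PBS mean of at least 0.5 FPKM and 0.42 for all 249 genes without a filter. With limma on log2(FPKM + 1) the median was 0.23 and 10 genes fell, with log2(FPKM + 0.1) the median was 0.44 and 10 fell, and with log2(TPM + 1) the median was 0.46 and 8 fell; the pseudocount of 1 by construction shrinks the change of low genes. At a mean of at least 1 FPKM, 47 of 99 genes rose around a median of 0.27, and at a mean of at least 5 FPKM 2 of 11 rose, 3 fell and the median reversed to -0.042. With GC content and length offsets 40 rose (23.1%, against 24.7% of all genes) and the median was 0.13, and with GC content offsets alone 39 rose (22.5%, against 24.4%) and the median was 0.13. With each sample left out in turn, 73 to 83 genes rose, 12 to 15 fell and the median lay between 0.35 and 0.39. Replicate numbers did not pair the samples, since deviations of same-numbered samples correlated at -0.09, -0.08 and -0.04, and with the replicate block 83 rose, 13 fell and the median was 0.37. The count of genes higher by more than 2-fold, 10, was 16 with library size alone, 0 with limma on log2(FPKM + 1) and 4 with the offsets. Among 21 named genes and 383 alternative values, 357 kept their direction and side of the threshold, 19 lost the threshold (15 of them ZNF317) and 7 reversed. The reversals were ZNF358 at 0.09 on TPM, 0.06 with GC content and length offsets and 0.05 with GC content alone, ZNF317 at 0.07 on TPM, and ZNF581 at 0.10 on TPM and 0.12 and 0.14 with those offsets, where the median over all genes was 0.23 on TPM and -0.03 with either offset. The cause of these shifts was not tested. A median SE of 0.13 limits what could pass the test for single genes.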

Other observations

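Protein-coding genes of chromosome 19 with ZFP, ZSCAN or ZIK symbols were outside the rule, and 6 of them were at or above 0.5 FPKM. Of these 6 genes, 2 rose, 1 fell and the median log2 fold change was 0.07. ZFP36, which encodes a protein that binds AU-rich mRNA elements and is no C2H2 factor, had a mean of 19.4 ± 0.83 CPM with PBS and 25.1 ± 0.771 CPM with rhSema3C (SD, n = 3 per group), which gave a fitted difference of 0.37 ± 0.07 on the log2 scale (edgeR's adjusted p = 0.00099). ZSCAN18 had 3.56, 3.81 and 4.33 CPM with PBS and 5.22, 5.65 and 5.52 CPM with rhSema3C, a log2 fold change of 0.49 ± 0.14 (edgeR's adjusted p = 0.011), although its transcript GC content was 59.4%. ZSCAN5A, in the span of the last ZNF cluster, had 5.02, 6.18 and 6.32 CPM with PBS and 4.87, 4.33 and 4.10 CPM with rhSema3C, a log2 fold change of -0.40 ± 0.15 (edgeR's adjusted p = 0.035). In all 3 genes the groups did not overlap.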
